A study of Rattus norvegicus with 9 samples.

Results

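Matrix metalloproteinases (Mmps) and the tissue inhibitors of metalloproteinases (Timps) were examined in the left ventricle of rats 28 days after surgery. The 10 genes were Mmp2, Mmp3, Mmp9, Mmp12, Mmp14, Mmp23, Timp1, Timp2, Timp3 and Timp4, chosen by name from the 35843 genes listed, and each name stood for 1 gene. RNA-seq had been run on 9 adult male Sprague-Dawley rats, the age of which was not given beyond adult, with 3 rats in each of 3 groups. In group MI the left anterior descending coronary artery had been ligated for good, without reperfusion, and saline was given by daily gavage. Group DAPA had the same ligation and received dapagliflozin, an inhibitor of the sodium-glucose cotransporter SGLT2, at 1 mg/kg by daily gavage from the first day. Group Sham had the operation without ligation and received saline. The study's methods name the left ventricle as the source of the RNA and elsewhere say that border tissue was used after the scar had been trimmed off, so the amount of scar in each piece is not known, and each sample title joins a pair of names whose meaning the labels do not give.

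Mmps are zinc-dependent endopeptidases that are made as inactive precursors and cut collagens, elastin, proteoglycans and other matrix proteins, and Timps bind their active site and block it. Mmp2 and Mmp9 are the gelatinases, Mmp3 is a stromelysin, Mmp12 is the macrophage elastase, Mmp14 is a membrane-anchored collagenase, and Mmp23 is an unusual membrane-bound member that lacks the common cysteine switch. Mmp14 activates the Mmp2 precursor in a complex that needs Timp2, so that Timp2 acts both as an inhibitor and as a partner in activation. After infarction these enzymes and inhibitors take part in removing the injured matrix and in building and turning over the scar, and much of their control lies in activation of the protein, which RNA levels do not measure.

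Expression was deposited as FPKM, fragments per kilobase of transcript and per fixed number of mapped fragments, which is scaled by length and so can be compared between genes. The reads behind the FPKM values could be recovered, and gave 13597239 to 17210909 reads per rat. The mitochondrial genome took 61.1 to 66.9% of them in group Sham, 7.07 to 19.1% in group MI and 17.5 to 32.0% in group DAPA, and the deposited FPKM values followed the reads outside it. Cardiomyocyte markers were high in every rat, with a summed FPKM of 2660 at the lowest, in MI rat 2, so the tissue carried the defining genes of heart muscle in all 9. MI rat 2 stood apart from the other MI rats in holding a summed FPKM of 3650 for B cell and plasma cell markers, against 35.1 and 634 in MI rats 1 and 3, and calls that were gained or lost without this rat are given with and without it.

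In group Sham the inhibitors were the more abundant side. The mean FPKM was 87.6 ± 20.0 (SD, n = 3) for Timp4, 82.7 ± 23.8 for Timp2, 58.0 ± 39.3 for Timp1 and 49.3 ± 2.66 for Timp3. Mmp2 followed at 27.8 ± 10.9, Mmp14 at 8.91 ± 4.40 and Mmp23 at 4.88 ± 0.167. Timp4 and Timp2 did not differ beyond the spread between rats, and neither did Timp1 from Timp2 or Timp3. In group MI the order was another one, with Timp2 at 574 ± 127 and Mmp2 at 358 ± 152 in front. Timp3 at 212 ± 72.7 and Timp1 at 188 ± 90.1 came next and overlapped, followed by Mmp14 at 87.3 ± 53.6 and Mmp23 at 29.0 ± 6.57. Timp4, which shared first place in group Sham, stood at 10.1 ± 4.09 in group MI, below every other inhibitor and below Mmp23.

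**Figure D1:**
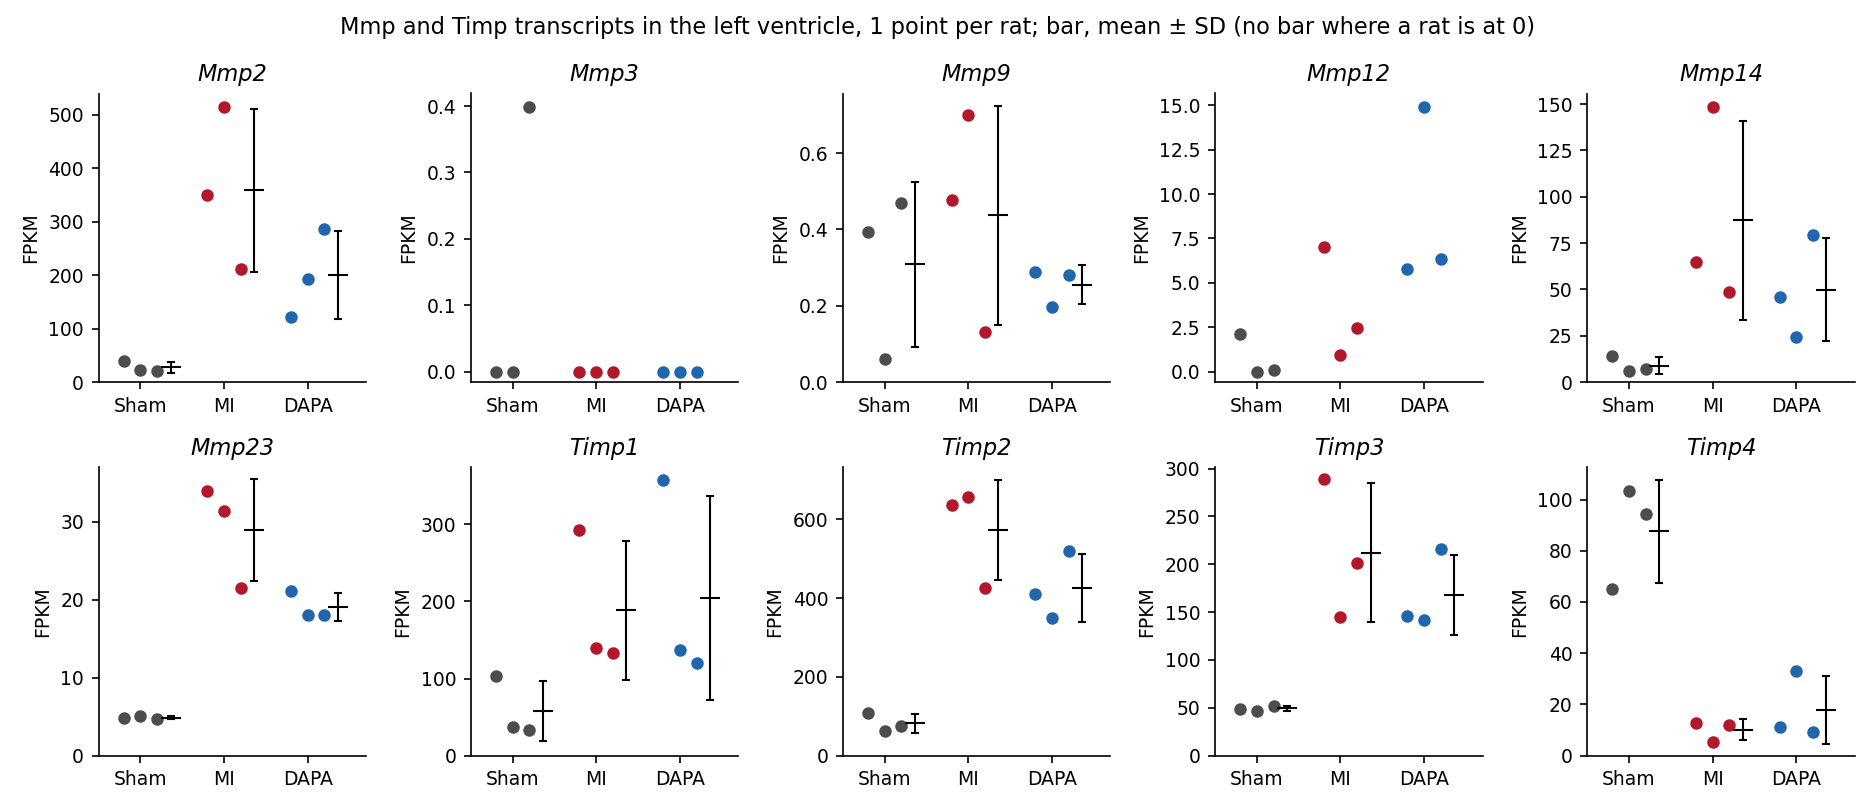
FPKM (vertical axis, linear, a separate range per gene) of the 10 genes in groups Sham, MI and DAPA, with 1 point per rat and, beside the points, a bar for the mean ± SD of the 3 rats where no rat was at 0. Mmp2, Mmp14, Mmp23, Timp1, Timp2 and Timp3 are higher in all MI and DAPA rats than in all Sham rats, and Timp4 is lower in all of them.

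The first comparison asked how the infarcted ventricle differed from the operated ventricle without infarction. Of the 8 members that passed the filter on low values, 6 rose in group MI (Mmp2, Mmp14, Mmp23, Timp1, Timp2 and Timp3), Timp4 fell, and Mmp12 did not pass the test. A gene was called when limma gave p under 0.05 and the change exceeded 1 on the log2(FPKM + 1) scale, the thresholds of the study, and the same 7 members also had a Benjamini-Hochberg adjusted p under 0.05. By the first rule 12.1% of the 13485 genes tested were higher in group MI and 10.3% were lower, and with the adjusted p 11.5% were higher and 9.93% were lower. Adding 1 before the log shrinks the differences of genes near 1 FPKM or below. In bulk tissue, fewer cells of a type and less RNA per cell cannot be told apart.

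Mmp2, the gelatinase expressed without a stimulus in many stromal cells, was the most abundant of the 6 Mmps in every rat. Its FPKM was 40.3, 21.9 and 21.2 in Sham rats 1 to 3, 349, 515 and 211 in MI rats 1 to 3, and 122, 192 and 287 in DAPA rats 1 to 3. Every infarcted rat lay above every Sham rat, with or without the drug. The mean in group MI was 12.9 times that in group Sham, and the log2 change was 3.61 ± 0.37 (SE), with a 95% confidence interval of 2.74 to 4.49 and an adjusted p of 0.00125 from limma. Without MI rat 2, the rat with the highest Mmp2, the log2 change was 3.31.

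Mmp14, the activator of Mmp2 at the cell surface, moved in the same direction. Its FPKM was 14.0, 5.87 and 6.90 in group Sham, 64.9, 148 and 48.6 in group MI, and 45.7, 24.3 and 79.5 in group DAPA. The groups MI and Sham did not overlap, and MI rat 2 was again the highest. The log2 change was 3.08 ± 0.46 (SE, limma adjusted p = 0.00314), and 2.61 without MI rat 2. Mmp23 was even within groups Sham and DAPA. Sham rats had 4.82, 5.07 and 4.75 FPKM, MI rats 33.9, 31.4 and 21.5, and DAPA rats 21.2, 18.0 and 18.0. The rise in group MI was 2.32 ± 0.19 (SE, limma adjusted p = 0.000953) on the log2 scale.

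Mmp12 was low and scattered. Its FPKM was 2.14, 0 and 0.0634 in group Sham, 7.00, 0.917 and 2.48 in group MI, and 5.79, 14.9 and 6.36 in group DAPA. These values rest on few reads in the first group, with 40, 0 and 1 reads in Sham rats 1 to 3 against 29 to 242 in group MI and 171 to 429 in group DAPA. The 0 of Sham rat 2 allows up to 3 reads, or 0.163 FPKM, by counting error alone. Sham rat 1 lay above MI rat 2, and the log2 difference of MI from Sham, 1.33 with a 95% interval from -0.14 to 2.81, did not pass the test (limma adjusted p = 0.133). The call was made without MI rat 2, with a log2 difference of 1.82 (unadjusted p = 0.0213 and adjusted p = 0.0658 from limma).

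The inducible gelatinase Mmp9 and the stromelysin Mmp3 were close to absent. Mmp9 had 0.394, 0.0618 and 0.469 FPKM in group Sham, 0.476, 0.701 and 0.132 in group MI, and 0.289, 0.198 and 0.281 in group DAPA, from 2 to 39 reads per rat. The groups overlapped throughout, no rat reached the filter of 1 FPKM, and the gene was not tested. Fitted without that filter, the log2 difference of MI from Sham was 0.13 ± 0.20 (SE). Mmp3 was listed at 0.399 FPKM in Sham rat 3 and at 0 in the other 8 rats, so no difference was detectable at this depth.

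Of the inhibitors, Timp2 gained most. Its FPKM was 109, 62.7 and 76.2 in Sham rats 1 to 3, 637, 656 and 427 in MI rats 1 to 3, and 409.6, 348 and 519 in DAPA rats 1 to 3. The log2 change in group MI was 2.79 ± 0.26 (SE, limma adjusted p = 0.00103), a ratio of means of 6.94. Timp3, the inhibitor that stays bound to the matrix, was nearly constant in group Sham at 49.0, 46.8 and 52.1 FPKM, and stood at 289.6, 145 and 201 in group MI and at 146, 142 and 216 in group DAPA. Its log2 change was 2.03 ± 0.25 (SE, limma adjusted p = 0.0018).

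Timp1, a secreted inhibitor known to be induced by cytokines and growth factors, was spread widely within groups. It had 103, 37.1 and 33.5 FPKM in group Sham, 292, 139.96 and 133 in group MI, and 357, 137 and 120.04 in group DAPA. Rat 1 was the highest in all 3 groups, and the groups Sham and MI did not overlap. The log2 change was 1.78 ± 0.48 (SE), with a 95% interval of 0.64 to 2.92 and an adjusted p of 0.0257 from limma. This was the least certain of the rises, since the adjusted p ran up to 0.0849 when single rats were left out, with the log2 change between 1.41 and 2.29.

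Timp4, the inhibitor known for its high level in the heart, went the other way. Its FPKM was 65.0, 103 and 94.3 in Sham rats 1 to 3, 12.9, 5.39 and 12.0 in MI rats 1 to 3, and 11.4, 33.0 and 9.23 in DAPA rats 1 to 3. All Sham rats lay above all infarcted rats, of which DAPA rat 2 was the highest. The mean in group MI was 8.68-fold lower than in group Sham, a log2 change of -3.05 ± 0.33 (SE) with a 95% interval of -3.83 to -2.28 and an adjusted p of 0.00135 from limma. Without MI rat 2, which had the lowest value, the log2 change was -2.69.

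Scaling decides how large these changes look, because the mitochondrial share differed between the groups. With all reads as the denominator the median of all genes moved from -0.01 to 0.92 on the log2 scale for MI against Sham, and with reads outside the mitochondrial genome it was -0.11. The 6 members called higher and Timp4 called lower kept their direction and their call under both. Timp4 had the smallest log2 change with all reads, -1.99, against a median gene at 0.92.

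**Figure D2:**
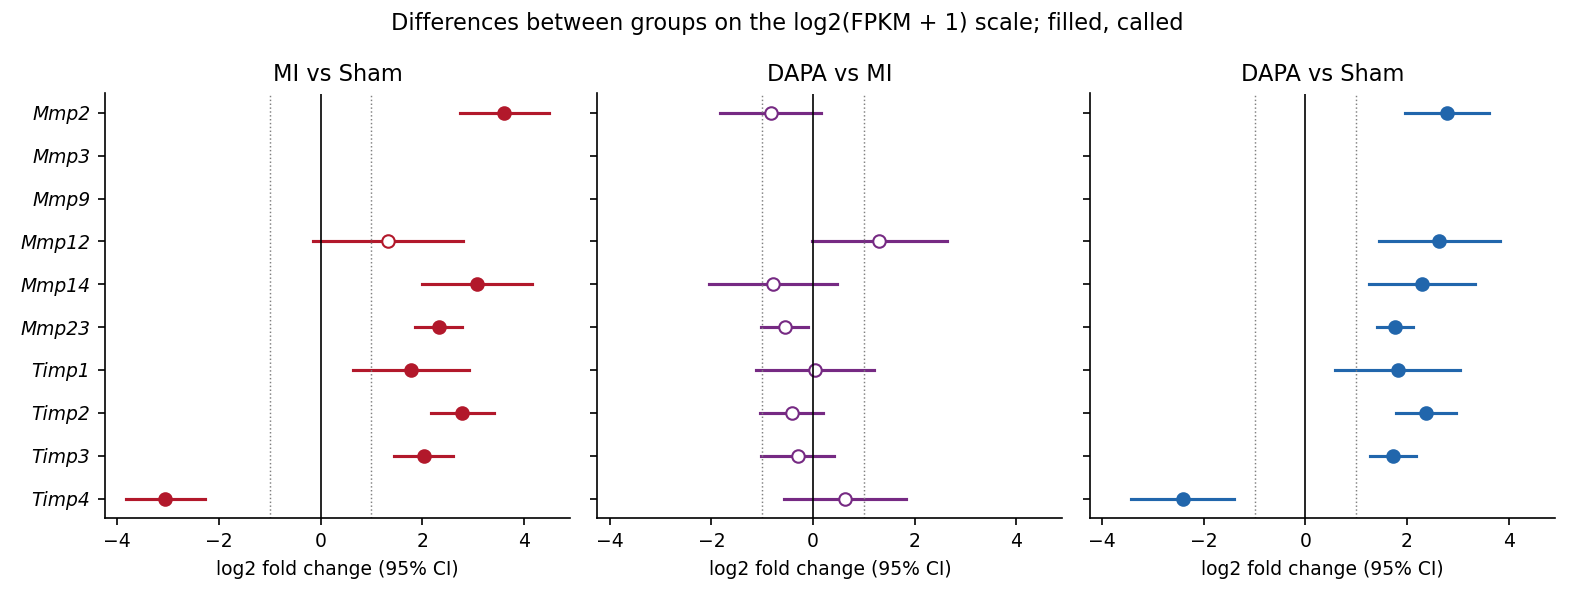
Log2 fold change (horizontal axis, log2(FPKM + 1) scale) with its 95% confidence interval from limma, for MI against Sham, DAPA against MI and DAPA against Sham, 3 rats per group. Filled points were called, open points were not, dotted lines mark the fold threshold, and Mmp3 and Mmp9 were not tested. The points for MI against Sham and DAPA against Sham lie on the same sides of 0, and the intervals for DAPA against MI cross 0 except that of Mmp23 (-1.02 to -0.09).

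The promoter sequences of the inhibitors and of Mmp23 were set out as a description. RefSeq gave the bases before the annotated start for 7 of the 10 members, on build GRCr8, and 250 bases of each were read on the gene's own strand. All are on the minus strand here: Timp1 at chrX:3771123-3771372, Timp2 at chr10:104089215-104089464, Timp3 at chr7:19459559-19459808, Timp4 at chr4:149985205-149985454 and Mmp23 at chr5:171524535-171524784. Capitals mark the GC box GGGCGG, a letter pattern bound by Sp1 family factors, on either strand, so that it can read CCGCCC.
Timp1: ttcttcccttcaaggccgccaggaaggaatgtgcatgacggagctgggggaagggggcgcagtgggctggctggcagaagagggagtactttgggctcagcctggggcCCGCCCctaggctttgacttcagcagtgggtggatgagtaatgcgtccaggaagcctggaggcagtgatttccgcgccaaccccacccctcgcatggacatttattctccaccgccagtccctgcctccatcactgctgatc
Timp2: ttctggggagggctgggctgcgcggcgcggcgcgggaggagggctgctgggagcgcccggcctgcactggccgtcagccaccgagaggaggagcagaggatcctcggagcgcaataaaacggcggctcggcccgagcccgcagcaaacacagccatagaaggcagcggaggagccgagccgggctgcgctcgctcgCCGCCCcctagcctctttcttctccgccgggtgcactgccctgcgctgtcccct
Timp3: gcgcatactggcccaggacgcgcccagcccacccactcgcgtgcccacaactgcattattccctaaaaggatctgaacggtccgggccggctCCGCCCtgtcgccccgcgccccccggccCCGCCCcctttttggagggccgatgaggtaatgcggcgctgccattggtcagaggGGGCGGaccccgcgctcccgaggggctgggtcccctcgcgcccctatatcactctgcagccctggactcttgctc
Timp4: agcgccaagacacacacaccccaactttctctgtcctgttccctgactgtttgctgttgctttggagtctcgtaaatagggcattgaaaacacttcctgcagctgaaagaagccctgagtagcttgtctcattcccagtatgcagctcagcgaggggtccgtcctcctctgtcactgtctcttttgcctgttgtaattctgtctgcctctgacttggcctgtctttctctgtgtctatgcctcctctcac
Mmp23: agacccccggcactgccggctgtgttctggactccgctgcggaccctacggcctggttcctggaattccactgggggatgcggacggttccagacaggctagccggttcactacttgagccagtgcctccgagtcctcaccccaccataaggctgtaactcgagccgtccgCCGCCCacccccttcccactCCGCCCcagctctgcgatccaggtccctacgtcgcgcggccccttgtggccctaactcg

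The GC box was found once in the Timp1 and Timp2 windows, 3 times in that of Timp3, 2 times in that of Mmp23 and not in that of Timp4, and 30.5% of 33469 promoter windows of this length hold it. The GC content was 61.2% for Timp1, 72% for Timp2, 69.6% for Timp3 and 66.4% for Mmp23, but 50.8% for Timp4, with a median of 51.2% over all promoters. CG dinucleotides numbered 9, 27 and 23 in Timp1, Timp2 and Timp3, 20 in Mmp23 and 4 in Timp4. The windows of Mmp3 and Mmp12, the low and scattered enzymes, had no GC box but each held the AP-1 pattern TGANTCA, which 6.34% of all windows hold, and the pattern TATAAA, which 12.9% hold. Neither pattern was in the other 5 windows. These are matches of letters and say nothing about which factors were bound. Any link between them and the differences between groups was not tested.

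The makeup of the inhibitor transcripts followed from these values and is given as a description. Timp4 made up 19.9, 41.3 and 36.8% of the summed Timp FPKM in Sham rats 1 to 3, but 1.04, 0.569 and 1.55% in MI rats 1 to 3. In DAPA rats 1 to 3 it was 1.23, 5.00 and 1.07%. Timp2 made up 25.1 to 33.4% in group Sham, 51.7 to 69.3% in group MI and 44.3 to 60.0% in group DAPA. Timp1 and Timp3 held shares that overlapped between all groups. The sum of the 4 inhibitors was 277 ± 42.5 FPKM (SD, n = 3) in group Sham and 984 ± 232 in group MI, and was 816 ± 139 in group DAPA.

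The balance of enzyme to inhibitor transcripts was also set out within each rat, where scaling cancels. The summed FPKM of the 6 Mmps over that of the 4 Timps was 0.189, 0.131 and 0.132 in Sham rats 1 to 3, 0.370, 0.735 and 0.368 in MI rats 1 to 3, and 0.211, 0.378 and 0.452 in DAPA rats 1 to 3. The ratio was higher in all infarcted rats than in all Sham rats, with DAPA rat 1 just above Sham rat 1. Mmp2 over Timp2 was 0.369, 0.348 and 0.278 in group Sham and 0.548, 0.784 and 0.495 in group MI without overlap, while group DAPA, at 0.298, 0.551 and 0.552, spanned both. Mmp14 over Timp2 overlapped between all groups, at 0.0906 to 0.128 in group Sham, 0.102 to 0.226 in group MI and 0.0699 to 0.153 in group DAPA. These ratios are of transcripts and not of protein, and no test was run on them.

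**Figure D3:**
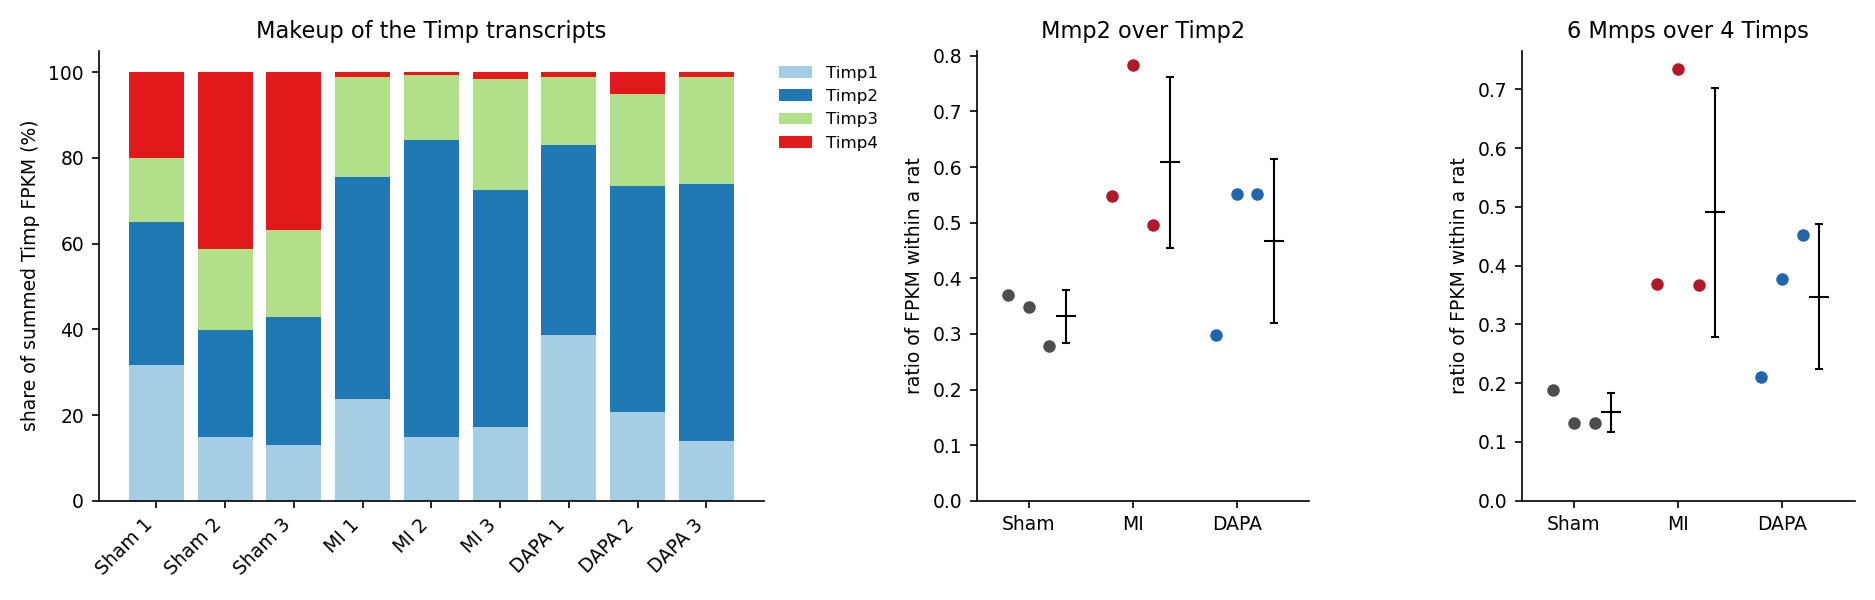
Left, the share of each inhibitor in the summed Timp FPKM (%) of each rat. Middle and right, the ratio of Mmp2 to Timp2 and of the 6 summed Mmps to the 4 summed Timps within a rat, with 1 point per rat and the mean ± SD of 3 rats. The Timp4 share is 19.9 to 41.3% in Sham rats and at most 5.00% in infarcted rats.

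The second comparison asked whether dapagliflozin altered these transcripts in the infarcted ventricle. None of the 8 members tested was called, in a comparison where 0.951% of 13251 genes were higher in group DAPA, 1.11% were lower, and 0% passed with an adjusted p. Without the fold threshold, at an unadjusted p under 0.05, 3.9% of genes were lower and 1 member, Mmp23, was among them. Its MI values of 33.9, 31.4 and 21.5 FPKM lay above its DAPA values of 21.2, 18.0 and 18.0, though MI rat 3 and DAPA rat 1 nearly met. The log2 difference was -0.56 ± 0.19 (SE), with a 95% interval of -1.02 to -0.09, an unadjusted p of 0.025 and an adjusted p of 0.558 from limma. Mmp23 was the only member whose groups did not overlap and that was lower, as 7.16% of genes were, and no member was higher without overlap, as 6.63% of genes were.

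For the other members the intervals left room for change in either direction. Mmp2 had a log2 difference of -0.83 with a 95% interval of -1.83 to 0.17 (limma adjusted p = 0.559), and DAPA rat 3 lay above MI rat 3. Mmp14 had -0.79 (-2.05 to 0.48), Timp2 -0.42 (-1.05 to 0.20) and Timp3 -0.30 (-1.01 to 0.41). Timp1 was level, at 0.04 (-1.13 to 1.20, limma adjusted p = 0.981). Timp4 had 0.63 (-0.57 to 1.84), a difference that fell to 0.10 without DAPA rat 2. Mmp12 had 1.3 (-0.03 to 2.63, unadjusted p = 0.0539 and adjusted p = 0.558 from limma), with MI rat 1, at 7.00 FPKM, above 2 of the 3 DAPA rats. A p that misses the threshold does not show that the groups were alike.

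Single rats decided several of these values. Without MI rat 2 the log2 difference was -0.52 for Mmp2 and -0.32 for Mmp14. Mmp2 was called lower in group DAPA without MI rat 3 (-1.16) or without DAPA rat 3 (-1.13), and Mmp12 was called higher without MI rat 1 (1.84). With all reads as the denominator the median of all genes was -0.21 on the log2 scale, no member was called, and Timp1 turned to -0.19.

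The third comparison set the treated infarcted rats against group Sham. All 8 members tested were called, 7 higher and Timp4 lower, each with an adjusted p under 0.05 from limma. In this comparison 9.54% of 13359 genes were higher and 8.16% were lower, and 8.74% and 7.49% with the adjusted p. The log2 change was 2.78 for Mmp2, 2.29 for Mmp14, 1.77 for Mmp23, 2.37 for Timp2 and 1.72 for Timp3. Timp1 had 1.82 ± 0.53 (SE, limma adjusted p = 0.0387) and Timp4 -2.42 ± 0.43 (limma adjusted p = 0.00781), a mean that was 4.90-fold lower. Mmp12 had 2.63 ± 0.51 (limma adjusted p = 0.0099), and it could pass the filter through the DAPA rats alone. This comparison shares its Sham rats with the first and its DAPA rats with the second, so the 3 sets of differences are not separate evidence.

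Other enzymes of the family were measured alongside. Of 16 further Mmp genes in the table, 4 could be tested in MI against Sham, of which Mmp19 rose and Mmp15 fell. Among all genes 12.1% were higher and 10.3% were lower. Mmp19, a secreted enzyme also made by macrophages and fibroblasts, had 1.53, 2.62 and 1.81 FPKM in group Sham, 12.8, 22.5 and 8.22 in group MI, and 8.22, 4.88 and 8.99 in group DAPA (log2 change in MI 2.29 ± 0.34, limma adjusted p = 0.00324). Mmp15, a membrane-anchored relative of Mmp14, had 34.2, 17.7 and 23.3 FPKM in group Sham, 7.02, 9.40 and 9.89 in group MI, and 7.78, 12.3 and 16.5 in group DAPA. Its log2 change in MI was -1.38 ± 0.25 (limma adjusted p = 0.00651), but only -0.34 and not called with all reads as the denominator. Under that scaling 3 of the 4 were called higher, Mmp19 at 3.11, Mmp17 at 1.17 and Mmp24 at 1.05. Of all genes 45.1% were higher there and 2.14% lower. In group Sham Mmp15 was above Mmp14 in every rat, and in group MI below it in every rat. None of the 3 further Mmps tested in DAPA against MI was called, and Mmp19 had -0.82 there (unadjusted p = 0.0608 from limma). Its value ran from -0.47 without MI rat 2 to -1.14 without MI rat 3, where it was called lower, and it was also called at -1.04 with all reads as the denominator. Mmp1, Mmp1b, Mmp10, Mmp11 and Mmp21 were listed at 0 in every rat.

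Of 20 listed genes that activate, bind or clear Mmps 18 were tested, and 10 of these rose in group MI while 2 fell, with a median log2 change of 1.13 against -0.01 for all genes. With all reads as the denominator 14 were higher and none was lower, where 45.1% of all genes were higher and 2.14% were lower. Of 17 tested when MI rat 2 was left out, 8 were higher and 3 lower. The shares over all genes were then 10.1% and 9.59%, and 12.1% and 10.3% with all rats. Lrp1, the receptor that takes up Mmps and Timps, rose by 2.85 on the log2 scale, and Plau, the urokinase that starts plasmin activation, by 2.26. Plau missed the filter on low values when MI rat 2 was left out, and was then not tested. Thbs2, a thrombospondin that binds Mmp2, rose by 2.39, whereas Tfpi2, a serine protease inhibitor of the matrix, fell by 1.61 on the log2 scale. None of the 18 was called in DAPA against MI, where the median was -0.15.

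The proteins that Mmps cut were read next. Of 15 matrix substrates tested 13 rose in group MI, with a median log2 change of 2.42, and none fell. Over all genes 12.1% were higher and 10.3% were lower in MI against Sham, and 1.11% were lower in DAPA against MI. Col1a1 and Col1a2, the chains of type I collagen, rose by 5.44 and 4.60 on the log2 scale, Col3a1 by 4.53 and Nid1, a basement membrane linker, by 2.13. In group DAPA 2 of the 15 were called lower than in group MI, Col1a1 with a log2 change of -1.15 and Eln, the gene for elastin, with -1.39, both with an adjusted p of 0.558 from limma. Without MI rat 2 neither was called, at -0.89 for Col1a1 and -1.35 for Eln. Of 19 Adam and Adamts proteases, relatives of the Mmps, 4 rose in group MI and none fell, with a median log2 change of 0.08. These were Adamts2, the procollagen peptidase, at 3.09, Adam9 at 2.05, Adamts15 at 2.02 and Adamts8 at 1.66, and none of the 19 was called in DAPA against MI. Scaled to all reads, 4 of the 15 substrates and 1 of the 19 proteases were lower in DAPA against MI. Under that scaling 2.13% of all genes were lower.

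Transcription factors and cytokines known to induce Mmps were also read. Of 16 tested 5 rose in group MI and none fell, with a median log2 change of 0.62. Over all genes 12.1% were higher and 10.3% were lower. With the adjusted p 4 were called higher, where 11.5% of all genes were. Without MI rat 2, 4 of 15 tested were higher and none was lower, where 10.1% of all genes were higher. With all reads as the denominator 12 were called higher, where 45.1% of all genes were and the median gene stood at 0.92. Runx1 rose by 1.93, Fos by 1.58, Egr1 by 1.53 and Junb by 1.28 on the log2 scale. Without MI rat 2 the limma adjusted p was 0.0196 for Runx1 and 0.0461 for Junb, but 0.0926 for Fos and 0.0828 for Egr1. None was called in DAPA against MI.

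Markers of cell types were read in the same fits. For the counts that follow, 12.1% of all genes were higher in MI against Sham and 10.3% were lower. In DAPA against MI these shares were 0.951% and 1.11%. All 8 fibroblast markers were tested and 7 rose in group MI, with a summed FPKM of 58.6 to 116 in Sham rats, 483 to 979 in MI rats and 434 to 529 in DAPA rats. Macrophage markers rose in 9 of 9, with sums of 87.3 to 370, 1436 to 2407 and 812 to 1310 in the same groups. MI rat 2 was the highest of the 9 rats for both sums and the lowest for cardiomyocyte markers. It was also the highest for Mmp2, Mmp14 and Timp2 and the lowest for Timp4, but within group MI it was the lowest for Timp3 and Mmp12, and MI rat 1 exceeded it for Timp1 and Mmp23. Sham rat 1, the Sham rat with the most Mmp2, Mmp14, Timp1 and Timp2 and the least Timp4, likewise had the highest fibroblast and macrophage sums of its group, 116 and 370. In group DAPA both sums were highest in rat 3, 529 and 1310, which had the most Mmp2, Mmp14, Timp2 and Timp3 and the least Timp4. DAPA rat 1, with the lowest fibroblast sum, 434, had the most Timp1 and Mmp23, and DAPA rat 2 the most Mmp12. The part of cell makeup in the member values was not tested.

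Cardiomyocyte markers fell in 2 of 10 in group MI, with sums of 8566 to 12303 FPKM in Sham rats and 2660 to 13742 in MI rats, and 2 of 10 were higher in group DAPA than in group MI, where the sum was 10928 to 23156. Scaled to all reads, MI against Sham gave 2 higher and 2 lower calls among the 10. Under that scaling 45.1% of all genes were higher and 2.14% were lower. When MI rat 2 was left out, no cardiomyocyte marker was called in DAPA against MI. Over all genes 0.294% were higher and 0.564% lower there. MI against Sham then gave 1 higher and 2 lower calls, where 10.1% of all genes were higher and 9.59% lower. Timp4 stood at 65.0, 103 and 94.3 FPKM in Sham rats 1 to 3, with cardiomyocyte sums of 8566, 10570 and 12303. In MI rats 1 to 3 it was 12.9, 5.39 and 12.0, with sums of 7477, 2660 and 13742. In DAPA rats 1 to 3 it was 11.4, 33.0 and 9.23, with sums of 19854, 23156 and 10928. In DAPA against Sham 4 of 10 cardiomyocyte markers were called higher and 1 lower. Over all genes 9.54% were higher and 8.16% lower in that comparison. Whether Timp4 went with the cardiomyocyte content of the tissue was not tested. Endothelial markers fell in 3 of 5 in group MI, from sums of 296 to 466 to sums of 153 to 189, but in none with all reads as the denominator. Neutrophil markers were called in 1 of 3, and in 0 of 2 without MI rat 2, with sums of 13.7 to 48.4 in group Sham, 18.4 to 70.7 in group MI and 13.0 to 174 in group DAPA. Smooth muscle markers gave 1 call in each direction of 6, T cell markers 1 rise of 5, and B cell and plasma cell markers 2 rises of 3. In DAPA against MI, 1 T cell marker of 5 and 2 B cell and plasma cell markers of 3 were lower, and no marker of the fibroblast, macrophage, neutrophil, endothelial or smooth muscle lists was called. With all reads as the denominator, 1 of 8 fibroblast, 2 of 9 macrophage and 4 of 5 T cell markers were lower in DAPA against MI. Under that scaling 2.13% of all genes were lower. Without MI rat 2 the T cell call and the B cell and plasma cell calls stood in both comparisons. The median log2 difference of DAPA from MI was then -0.68 in place of -1.42 for the T cell list. It was -3.30 over the 2 tested B cell and plasma cell markers in place of -4.20 over 3. In that setting 0.564% of all genes were lower in DAPA against MI.

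**Figure D4:**
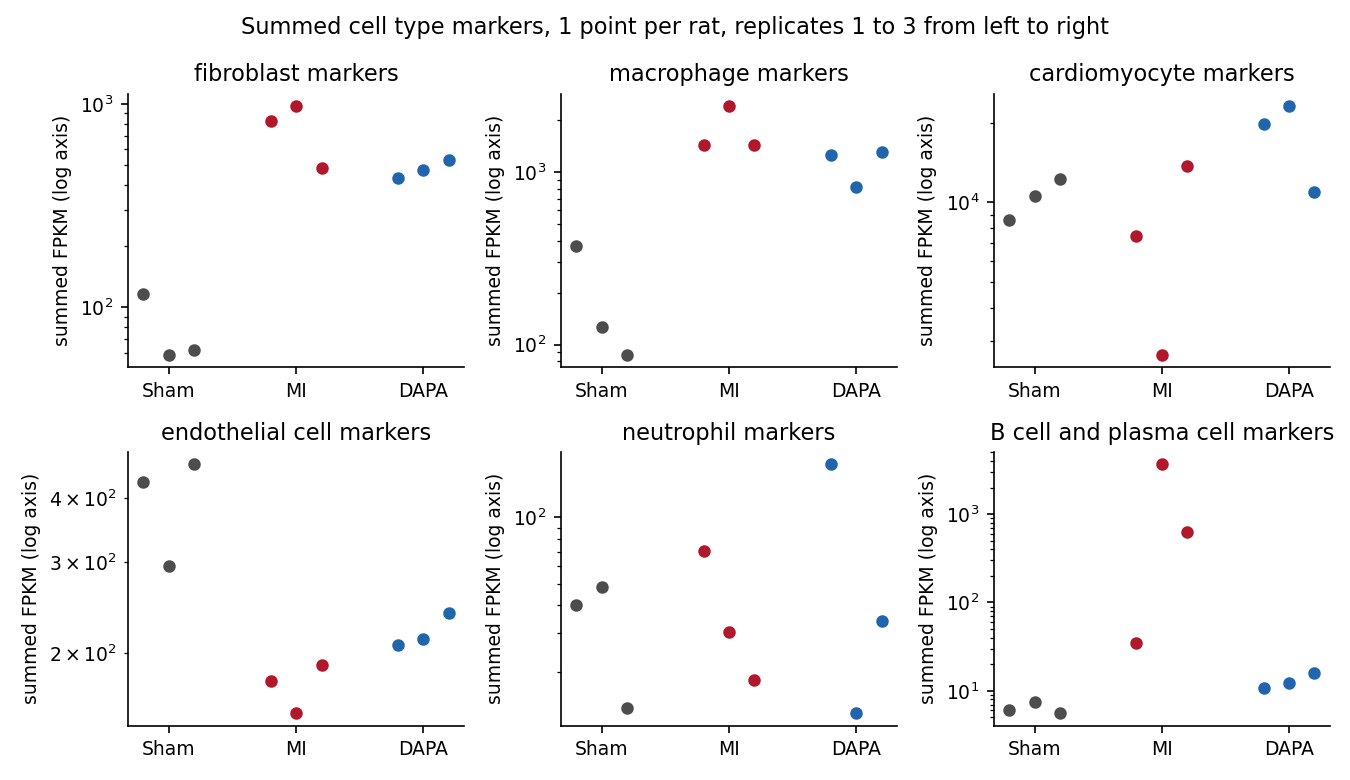
Summed FPKM (vertical axis, logarithmic, a separate range per panel) of the marker genes of 6 cell types in groups Sham, MI and DAPA, 1 point per rat. Fibroblast and macrophage sums are higher in all infarcted rats than in all Sham rats, and MI rat 2, the middle MI point, has the lowest cardiomyocyte sum (2660) and the highest B cell and plasma cell sum (3650).

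The genes with the pattern most like each member were looked up among 12987 genes, by the root mean square difference of log2(FPKM + 1) over the 9 rats after each gene's own mean was removed. Nearest to Mmp2 were Cpxm1 (0.19) and Ccdc80 (0.21), the latter a secreted matrix protein. Timp2 had Lrp1 (0.12) and Mfap5, a microfibril protein (0.16). Timp3 had Apcdd1 (0.17) and Ltbp3 (0.19), Mmp14 had C1s (0.24) and Clec4a3 (0.26), and Mmp23 had Glul (0.19) and Adam9 (0.21). Timp4 had Ppip5k2 (0.27) and Pla2g4b (0.31), and Timp1 had Fstl3 (0.35) and Adamts8 (0.35). Mmp12 was far from any other, with AABR07070555.1 at 0.41 and Nxnl2 at 0.57. For Mmp3 the lookup returned AABR07072809.1 (0.04) and RGD1562747 (0.06), and for Mmp9 Cerk (0.07) and Rlf (0.08). Neither of these members reached 1 FPKM in any rat. Cerk ran from 15.8 to 25.9 FPKM and Rlf from 2.76 to 4.41. The points share libraries and groups, so these are descriptions.

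Timp1, Timp3 and Timp4 share their place in the genome with synapsin genes. In RefSeq, Timp1 lies inside Syn1, Timp3 inside Syn3 and Timp4 inside Syn2, while Timp2 partly overlaps Cep295nl and the 6 Mmps overlap no gene. The counting was not stated to use strand, so reads in the shared stretches cannot be assigned by strand. Syn1 and Syn3 were at most 0.389 FPKM in every rat, and Cep295nl reached 1.06. Syn2 had 2.71, 4.50 and 4.90 FPKM in group Sham, 0.294, 0.279 and 0.889 in group MI, and 0.688, 1.37 and 0.293 in group DAPA, and fell in group MI by 1.76 on the log2 scale (limma adjusted p = 0.0036). Its values were low in the same groups as those of Timp4 and the part of shared reads in either was not tested.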

How the data were processed

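RNA-seq of 9 rat left ventricles was analysed, 3 per group. The authors purified poly-A RNA, made libraries with the NEBNext Ultra kit and, per the submitters' processing notes, used HISAT2 2.0.5, StringTie 1.3.3b, featureCounts 1.5.0-p3 and DESeq2. The genome build, and how the first 3 tools were combined, are not given in the sources used here. The deposited values are FPKM per gene, made by the authors, and the study's methods test with DESeq2. Because no counts were used as deposited, the test here was limma 3.58.1 (R 4.3.3) on log2(FPKM + 1), with a mean-variance trend, 2 groups per fit and genes at 1 FPKM or more in at least 3 of 6 rats. Calls used p under 0.05 and an absolute log2 change over 1, with Benjamini-Hochberg values over all genes tested beside them.

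Reads per gene were recovered as whole multiples of the FPKM step, for all 18896 genes that were above 0 in 4 or more rats, and served for depth, for other scalings and for a voom fit. The self-made steps were tested on simulated data. P-values measure the spread between 3 rats per group, and the smallest p of an exact test of 3 against 3 would be 0.1. Intervals for counts of 0 cover counting error only. Same-numbered rats did not deviate together (correlations from -0.304 to 0.195, over 0.1 in 2 of 9 pairs), so replicate numbers were not used to pair them. The members and gene lists were chosen with earlier results of these data known. All 10 members were named, other Mmps where called, up to 4 called genes per list in MI against Sham and up to 2 in DAPA against MI by smallest p, and the 2 nearest genes per member. Syn2, Syn1, Syn3 and Cep295nl were named for their position. Of the fixed lists, 1 gene each of the further Mmps, matrix substrates, macrophage, endothelial and B cell lists was not analysed here.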

Additional observations from a re-analysis of the deposited data

How the results depend on the processing

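Of 357 values of single members under alternatives, 345 kept direction and side of the threshold, 8 passed it where the reported value did not, 4 changed sign and none was lost. Using the adjusted p or no fold threshold changed only the rule for a call, so no log2 change could move there. Mmp12 in MI against Sham had 12 alternatives in place of 15, because it missed the filter in the rest. Members called higher in DAPA against MI numbered 1 in place of 0 with voom on recovered reads (Mmp12, 1.65), and 0 to 1 when rats were left out in turn. Members called lower numbered 1 without a fold threshold (Mmp23) and 0 to 1 when rats were left out. Timp1 in DAPA against MI turned from 0.04 to -0.19 with all reads as the denominator and ran from -0.45 to 0.40 when rats were left out. The cause was not tested. Mmp12 in MI against Sham also passed with all reads as the denominator (1.78, limma adjusted p = 0.024). With the replicate number as a replicate block, 7 members were higher in MI against Sham, Mmp12 added (1.33, limma adjusted p = 0.0191), 1 was lower, and none was called in DAPA against MI, where all genes gave 71 higher and 146 lower calls in place of 126 and 147. Counts over all genes in DAPA against MI ran from 38 higher and 73 lower without MI rat 2 to 408 higher and 153 lower without MI rat 3, and were 63 and 296 with all reads as the denominator. With all reads, MI against Sham gave 6099 higher and 290 lower calls in place of 1634 and 1390. The adjusted p of Timp1 reached 0.0849 in MI against Sham and 0.113 in DAPA against Sham. Leaving MI rat 2 out of the other gene lists and the marker lists was chosen after seeing the data. Depth limits Mmp3, Mmp9 and Mmp12, with at most 429 reads in any rat.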

Other observations

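Mmp8, the collagenase of neutrophils, was not among the genes tested between groups in the report. Its FPKM was 0.352, 0.878 and 0 in Sham rats 1 to 3, 1.31, 0.162 and 0.235 in MI rats 1 to 3, and 4.42, 0.306 and 0.453 in DAPA rats 1 to 3. DAPA rat 1, the highest, also had the highest summed neutrophil markers, 174 FPKM, while MI rat 1, the next, had 70.7. Mmp16, a membrane-anchored Mmp, stayed below the filter of 1 FPKM in every rat, at 0.0276 to 0.0967 in group Sham, 0.311 to 0.896 in group MI and 0.486 to 0.568 in group DAPA, from 1 to 61 reads, and its Sham and infarcted rats did not overlap. Mmp28 was at 1.23 FPKM in DAPA rat 1 and at most 0.185 elsewhere. Fitted without the filter, Mmp16 was 0.56 above group Sham in group MI (limma adjusted p = 0.0482) and 0.53 above it in group DAPA (limma adjusted p = 0.0216) on the log2(FPKM + 1) scale, short of the fold threshold. Mmp8 and Mmp28 did not reach an adjusted p under 0.05 in any comparison of that fit. These genes were picked after their values were seen.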
